A study of Mus musculus with 6 samples.

Results

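The genes described here are 9 members of the PARP family, Parp1, Parp2, Parp3, Parp8, Parp9, Parp10, Parp11, Parp12 and Parp14, together with Dtx3l, the partner of PARP9. They were chosen by symbol, 10 of the 39179 gene identifiers in the deposited count files, and all 10 were among the 14850 genes with enough counts to test. The data are 6 RNA-seq libraries, made from mouse tumour grafts of MMTV-Neu cells, in which the mouse mammary tumour virus promoter drives the Neu (ErbB2) oncogene in mammary epithelium. The grafts grew in FVB mice, and the grafted cells were AXL+/+ (3 libraries labelled WT) or AXL-/- (3 libraries labelled AXL KO), so that Neu and the host strain are common to both groups. The labels do not say whether grafts came from separate animals, whether the AXL KO cells are 1 clone, or how the gene was deleted. The p-values below therefore rest on the scatter among these 6 libraries alone, part or all of which could be technical, and a difference between lines cannot be told apart from one of AXL.

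PARP enzymes transfer ADP-ribose from NAD+ onto proteins and nucleic acids. PARP1 and PARP2 sense DNA breaks and build chains of ADP-ribose, PARP3 acts at DNA breaks too, and most other members add single ADP-ribose units. PARP9, PARP10, PARP11, PARP12 and PARP14 are known as interferon-inducible members with roles in antiviral defence. PARP9 has no transferase activity of its own in the usual assays and works in a complex with DTX3L, a ubiquitin ligase of the Deltex family.

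RefSeq promoter sequences (GRCm38.p6, 250 bases before to 50 bases after a gene start) were at hand for 7 of the 10 genes, not for Parp9, Parp10 or Parp14. These windows are shown: 4 windows of 3 genes that were higher in the AXL KO libraries (Parp11 has 2 annotated starts) and that of Parp1 for contrast. They read 5′ to 3′ on the strand of the gene, and capitals mark matches to 2 motifs on either strand: GAAA, any 2 bases and GAAA again, the core of the interferon-stimulated response element, or TTC, any 3 bases and GAA, the core of the gamma-activated site. The windows are chr6:127446590-127446889 (plus strand) and chr6:127453377-127453676 (plus) for Parp11, chr16:35938978-35939277 (minus) for Dtx3l, chr6:39118300-39118599 (minus) for Parp12 and chr1:180568641-180568940 (plus) for Parp1.
Parp11 first window: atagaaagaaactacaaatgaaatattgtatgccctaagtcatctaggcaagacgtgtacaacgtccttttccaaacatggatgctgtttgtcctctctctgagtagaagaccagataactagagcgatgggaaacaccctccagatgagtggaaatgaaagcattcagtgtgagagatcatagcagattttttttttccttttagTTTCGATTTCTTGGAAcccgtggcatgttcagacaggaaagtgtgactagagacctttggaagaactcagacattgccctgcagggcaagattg
Parp11 second window: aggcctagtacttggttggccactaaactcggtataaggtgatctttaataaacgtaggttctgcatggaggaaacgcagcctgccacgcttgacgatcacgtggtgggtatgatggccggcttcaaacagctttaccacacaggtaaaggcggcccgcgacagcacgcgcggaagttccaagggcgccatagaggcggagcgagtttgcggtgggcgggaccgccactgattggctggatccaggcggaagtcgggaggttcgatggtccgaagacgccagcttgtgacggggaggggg
Dtx3l window: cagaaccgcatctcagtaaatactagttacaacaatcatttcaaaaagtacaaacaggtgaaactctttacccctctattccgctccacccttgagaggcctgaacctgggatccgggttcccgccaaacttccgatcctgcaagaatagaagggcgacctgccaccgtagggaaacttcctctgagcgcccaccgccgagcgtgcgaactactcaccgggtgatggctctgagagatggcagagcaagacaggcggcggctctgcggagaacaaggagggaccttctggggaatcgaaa
Parp12 window: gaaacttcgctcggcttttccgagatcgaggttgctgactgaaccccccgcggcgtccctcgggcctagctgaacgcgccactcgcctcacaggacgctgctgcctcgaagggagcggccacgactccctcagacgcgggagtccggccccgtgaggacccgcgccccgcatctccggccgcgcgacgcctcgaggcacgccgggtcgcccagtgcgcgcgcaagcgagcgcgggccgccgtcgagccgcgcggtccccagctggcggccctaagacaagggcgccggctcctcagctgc
Parp1 window: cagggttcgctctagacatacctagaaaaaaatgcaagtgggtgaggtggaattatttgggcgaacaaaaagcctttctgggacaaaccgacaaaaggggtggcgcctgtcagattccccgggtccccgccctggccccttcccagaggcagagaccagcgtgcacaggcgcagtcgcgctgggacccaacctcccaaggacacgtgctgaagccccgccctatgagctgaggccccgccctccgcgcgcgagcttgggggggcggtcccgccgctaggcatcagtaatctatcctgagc
Only the first window of Parp11, among the 8 windows of the 7 genes, held either motif. TTTCGATTTC, a match to the response element core on the opposite strand, lay at positions 207 to 216, ending 34 bases before the gene start, and overlapped TTCTTGGAA, a match to the gamma-activated core, at positions 214 to 222. Of all 32851 promoter windows, 3.44% held the first motif and 8.3% the second. No match in a window says only that these letters are not in it. The Dtx3l window is also a start region of Parp9: 4 annotated Parp9 transcripts on the other strand begin within it, and 229 of its 300 bases lie in Parp9 exons.

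Parp14, Parp12, Parp11, Parp9, Dtx3l and Parp10 were each higher in the AXL KO libraries, by 2.15- to 6.32-fold, while Parp1 and Parp3 did not pass the test, Parp8 was modestly higher and Parp2 slightly lower. In all, 7 of the 10 genes were called higher and 1 lower at an adjusted p under 0.05 (edgeR quasi-likelihood test, Benjamini-Hochberg adjustment over all tested genes). Among all tested genes, 37.4% were called, 19.1% higher and 18.3% lower. The 2 groups did not overlap for 9 of the 10 genes, against 52.2% of tested genes, and for 8 of the 9 the AXL KO libraries were the higher ones, against 26.9% of tested genes. A call with at least a 2-fold increase was made for 6 of the 10, and for 5.14% of tested genes. The interferon-linked genes had a median log2 fold change of 1.69, Parp1, Parp2, Parp3 and Parp8 one of -0.06, and all tested genes one of 0.0003. The members were chosen with earlier results of these data known, so these counts describe the chosen genes and are no independent evidence of their direction. In a bulk graft, more cells of a type and more RNA per cell cannot be told apart.

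**Figure D1:**
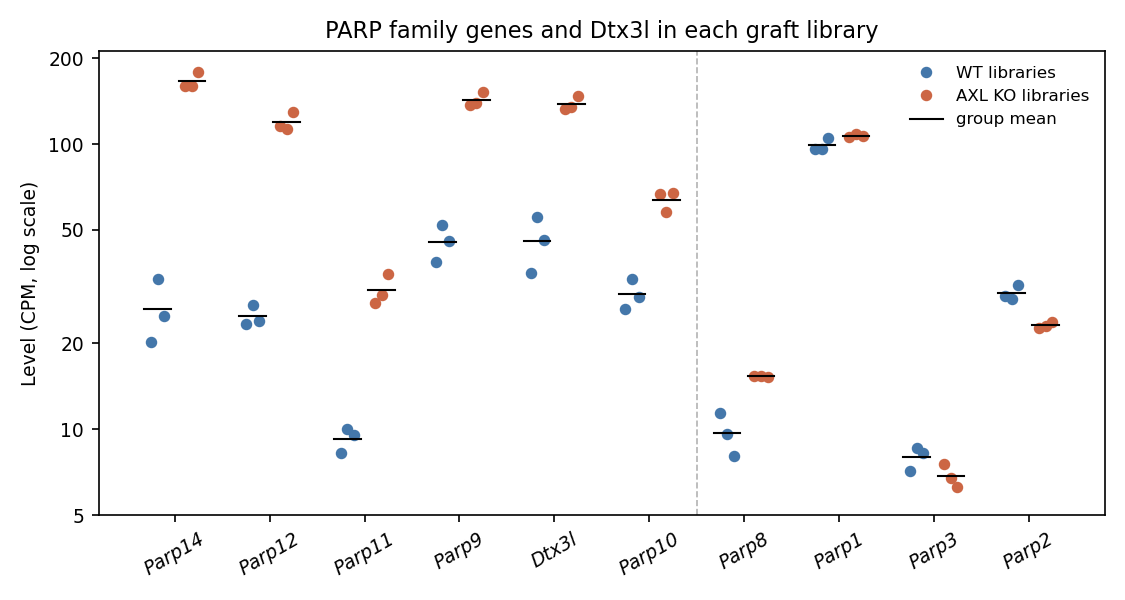
Level of each gene in each library in CPM (log axis), with WT libraries in blue, AXL KO libraries in orange and group means as black bars. Left of the dashed line stand the 6 interferon-linked genes, whose AXL KO libraries lie above all WT libraries. Right of it stand Parp8 and Parp1, for which this also holds, and Parp3 and Parp2, for which it does not.

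Parp14 (ENSMUSG00000034422), a large macrodomain protein known as a co-factor of STAT6, had the largest change of the 10. Its level was 20.3, 33.7 and 25.0 CPM (a gene's count relative to its library's total, with TMM scaling) in the WT libraries and 159.9, 160.4 and 179.5 CPM in the AXL KO libraries. Every AXL KO library was thus far above the highest WT library, WT replicate 2. The rise was 6.32-fold, with a 95% interval from 4.87 to 8.22 (log2 fold change 2.66 ± 0.17 SE, edgeR adjusted p = 1.34e-05).

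Parp12 (ENSMUSG00000038507, chr6:39086410-39118349, GRCm38), a zinc-finger PARP with antiviral activity, was counted at 23.4, 27.4 and 23.9 CPM in the WT libraries and 115, 113 and 129 CPM in the AXL KO libraries. It rose 4.79-fold (95% interval 4.13 to 5.57, edgeR adjusted p = 1.95e-06), and its groups were far apart in relation to their spread, with means of 24.9 ± 2.16 and 119 ± 8.79 CPM (SD, n = 3 each). Parp11 (ENSMUSG00000037997, chr6:127446840-127494261), a small PARP that adds single ADP-ribose units, was the least abundant of the 6 in counts. It lay at 8.28, 10.03 and 9.52 CPM in the WT libraries and at 27.8, 29.6 and 35.0 CPM in the AXL KO libraries, again without overlap. It rose 3.32-fold (95% interval 2.74 to 4.02, edgeR adjusted p = 2.62e-05). Parp11 is the gene whose first window holds the printed motif matches.

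Parp9 (ENSMUSG00000022906) and Dtx3l (ENSMUSG00000049502), which encode the partners of a complex, rose by much the same factor. Parp9 stood at 38.7, 51.9 and 45.7 CPM in the WT libraries and 137, 139 and 152 CPM in the AXL KO libraries, a 3.14-fold rise (95% interval 2.64 to 3.74, edgeR adjusted p = 1.94e-05). Dtx3l stood at 35.2, 55.5 and 46.1 CPM and at 132, 135 and 147 CPM, a 3.03-fold rise (95% interval 2.40 to 3.81, edgeR adjusted p = 0.000102). Neither gene's groups overlapped. Per kb of exon, the ratio of Dtx3l to Parp9 within a library was 0.774, 0.911 and 0.858 in the WT and 0.823, 0.828 and 0.819 in the AXL KO libraries. The AXL KO ratios lay within the range of the WT ratios. The exact permutation test of the log2 ratio (two-sided p = 0.7, n = 3 each) cannot go below 0.1 in this design, so it does not show that the ratio was the same. The 2 genes lie head to head with spans that overlap by 682 bases, of which 458 are exonic in both, and no source used here gives the use of strand in counting. If strand was not used, reads from that stretch fit both genes and may have been set aside as ambiguous, counted for neither. The per-kb levels and this ratio divide by full exon lengths, shared bases included.

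The ratios of Parp14 and Parp12 to Parp9, in contrast, lay higher in every AXL KO library than in any WT library. Parp14 stood at 0.274, 0.340 and 0.286 of the Parp9 level per kb in the WT libraries and at 0.612, 0.605 and 0.616 in the AXL KO libraries. Parp12 stood at 0.739, 0.644 and 0.637 of the Parp9 level in the WT and at 1.03, 0.995 and 1.04 in the AXL KO libraries. The exact permutation test gave two-sided p = 0.1 for each (n = 3 each), the smallest that 3 libraries against 3 allow. Of 11 ratios and shares tested this way, 10 had that p, which is 0.11 after Benjamini-Hochberg adjustment over the 11.

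Parp10 (ENSMUSG00000063268, chr15:76231174-76243441), which modifies proteins with single ADP-ribose units, changed least among the interferon-linked genes. It was at 26.3, 33.8 and 29.1 CPM in the WT libraries and 66.7, 57.7 and 67.2 CPM in the AXL KO libraries, a 2.15-fold rise (95% interval 1.81 to 2.55, edgeR adjusted p = 0.000144). The groups stayed apart, although AXL KO replicate 2 was lower than the other two. Parp10 shares 205 exonic bases with Plec, the plectin gene on the same strand. Reads there are uncertain and may have been set aside as ambiguous, counted for neither gene. Plec itself did not pass the test, with a log2 fold change of -0.12 (edgeR adjusted p = 0.492).

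Parp1 (ENSMUSG00000026496, chr1:180568924-180601254) and Parp2 (ENSMUSG00000036023, chr14:50807841-50821301), the DNA break sensors, went separate small ways. Parp1 had 96.2, 96.4 and 105 CPM in the WT libraries and 106, 108 and 106 CPM in the AXL KO libraries, which lay just above all WT libraries. The ratio of means was 1.08 with a 95% interval from 0.965 to 1.21 (edgeR adjusted p = 0.254). Parp2 had 29.4, 28.6 and 32.0 CPM in the WT libraries and 22.7, 23.1 and 23.8 CPM in the AXL KO libraries. All AXL KO libraries were below all WT libraries, and Parp2 fell 1.29-fold (log2 fold change -0.37 ± 0.08 SE, edgeR adjusted p = 0.0082).

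Parp3 (ENSMUSG00000023249, chr9:106470322-106476949), which acts in double-strand break repair, had 7.14, 8.57 and 8.23 CPM in the WT libraries and 7.54, 6.73 and 6.27 CPM in the AXL KO libraries. Its groups overlapped, and the ratio of AXL KO to WT was 0.858 with a 95% interval from 0.692 to 1.06 (edgeR adjusted p = 0.23). Parp8 (ENSMUSG00000021725, chr13:116854820-117025537), a little-studied PARP, was the only gene of Parp1, Parp2, Parp3 and Parp8 that was called higher. It lay at 11.4, 9.63 and 8.09 CPM in the WT libraries and at 15.3, 15.4 and 15.3 CPM in the AXL KO libraries, and it rose 1.58-fold (95% interval 1.28 to 1.95, edgeR adjusted p = 0.0053). The interval of Parp8 ends below the lower bound of each of the 5 largest increases and overlaps that of Parp10. The authors' deposited table, fitted with DESeq2, called the same number of members, 8, and gave each of the 10 the same direction as edgeR.

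**Figure D2:**
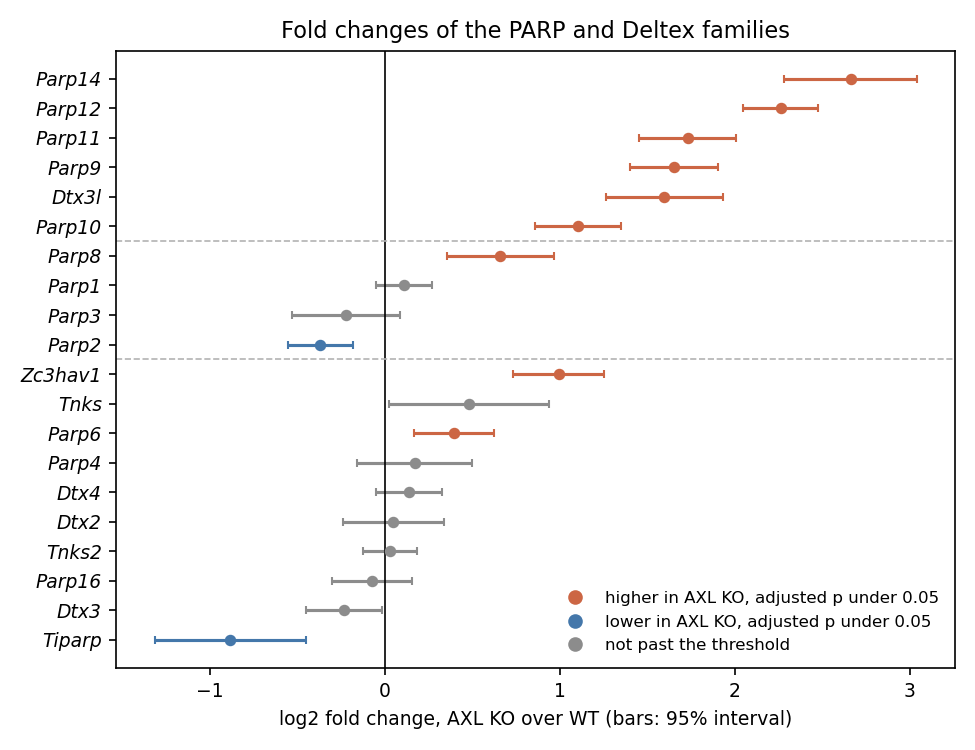
Log2 fold change of AXL KO over WT with its 95% interval for the 6 interferon-linked genes (top), Parp8, Parp1, Parp3 and Parp2 (middle) and the other tested PARP and Deltex genes (bottom). Orange marks genes higher and blue genes lower at an edgeR adjusted p under 0.05, and the log2 values run from 2.66 for Parp14 to -0.88 for Tiparp.

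Of the other PARP genes, a list of 7, 2 rose, 1 fell and 4 did not pass the test, a share called near the 37.4% of all tested genes. Their median log2 fold change was 0.17, but 0.0073 without WT replicate 1 and 0.33 without WT replicate 2. Zc3hav1, the antiviral zinc-finger protein ZAP (PARP13), which binds viral RNA and is also interferon-inducible, rose 1.99-fold. Its level went from 48.2, 65.8 and 54.8 CPM to 107.9, 108.7 and 119 CPM (edgeR adjusted p = 0.000339). Tiparp (PARP7), a target of the aryl hydrocarbon receptor and a brake on type I interferon induction, fell (log2 fold change -0.88 ± 0.19 SE, edgeR adjusted p = 0.00724). It went from 16.7, 23.4 and 23.5 CPM to 10.1, 14.7 and 9.65 CPM, so AXL KO replicate 2 came closest to the WT range. Parp6 rose 1.31-fold (edgeR adjusted p = 0.0145), but lay at an adjusted p of 0.0553 without AXL KO replicate 1.

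Tnks and Tnks2 encode the tankyrases, which build ADP-ribose chains on targets such as axin. Tnks was at 48.3 ± 15.7 CPM in the WT and 67.4 ± 3.43 CPM in the AXL KO libraries (SD, n = 3 each, edgeR adjusted p = 0.0921). Its call depended on the method. The edgeR adjusted p was 0.0176 without WT replicate 2 and 0.0447 without a filter, and DESeq2 gave 0.0457. The authors' deposited table, fitted with DESeq2, had an adjusted p of 0.0467. Tnks2 was at 249.8 ± 9.54 and 255.0 ± 7.32 CPM (edgeR adjusted p = 0.760). Parp4, the vault PARP, and Parp16, a PARP of the endoplasmic reticulum, had log2 fold changes of 0.17 and -0.07 (edgeR adjusted p = 0.388 and 0.594). Among the relatives of Dtx3l, none of the 3 tested Deltex genes was called: Dtx2, Dtx3 and Dtx4 had log2 fold changes of 0.05, -0.23 and 0.14, with edgeR adjusted p-values of 0.794, 0.0823 and 0.219. At an unadjusted p under 0.05, edgeR would count 1 of the 3, Dtx3, and DESeq2 and limma-voom called none of the 3. Dtx1 was too low to test.

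Levels can be compared between genes only per length of transcript. Per kb of exon, Parp1 was the highest of the 10 genes in the WT libraries, at 18.7 ± 0.962 CPM per kb (SD, n = 3), ahead of Parp9 at 9.32 ± 1.35. Parp9, Parp2, Dtx3l, Parp10 and Parp12 followed each other with overlapping ranges. Parp14, at 2.83 ± 0.731 CPM per kb, was well below them and overlapped with Parp3, and Parp11 and Parp8 were lowest. In the AXL KO libraries Parp12 and Parp9 led at 29.9 ± 2.20 and 29.3 ± 1.76 CPM per kb and overlapped with each other. Dtx3l came next at 24.1 ± 1.35, ahead of Parp1 at 20.2 ± 0.228 and Parp14 at 17.9 ± 1.20, each without overlap with its neighbour. With the longest transcript as length, 7 genes in the WT and 6 in the AXL KO libraries took another place in this order.

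The make-up of the family's transcripts also stood apart between the groups. Summed per kb over the 16 PARP genes considered (9 members and the 7 others), the family stood at 101.5, 120.3 and 114 CPM per kb in the WT and 188, 187 and 199.7 in the AXL KO libraries. Parp9, Parp10, Parp11, Parp12 and Parp14 together made up 23.0%, 25.3% and 23.1% of that sum in the WT libraries. In the AXL KO libraries they made up 49.9%, 49.0% and 51.9%. The share of Parp1 was 17.9%, 15.1% and 17.5% in the WT and 10.7%, 10.9% and 10.1% in the AXL KO libraries, while its own level did not pass the test. Neither share overlapped between groups (exact permutation test, two-sided p = 0.1 each, n = 3 each, the smallest possible). Both shares are parts of the same sum and follow largely from the fold changes given above, so their tests are no separate evidence. These are shares of reads per exon length, not of protein or of enzyme activity.

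**Figure D3:**
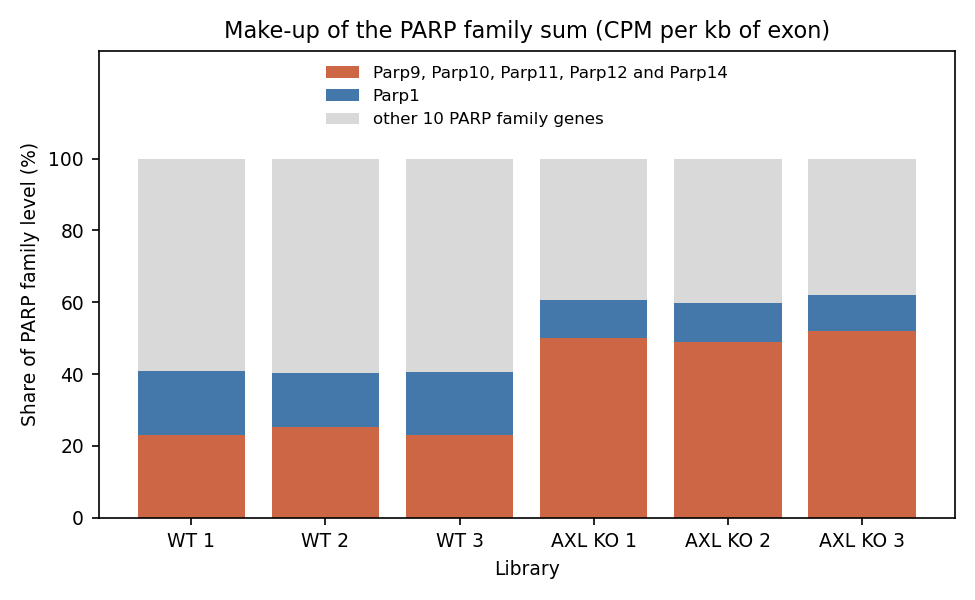
Share of each library's PARP family sum (CPM per kb of exon, 16 genes) held by the 5 interferon-linked PARP genes (orange), Parp1 (blue) and the other 10 genes (grey). The orange share is 23.0% to 25.3% in the WT and 49.0% to 51.9% in the AXL KO libraries.

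Parp14, Dtx3l and Parp9 lie next to each other on chromosome 16 (GRCm38), Parp14 at 35832874 to 35871544, Dtx3l at 35926511 to 35939151 and Parp9 at 35938470 to 35972605. Of the 8 other tested genes within 200 kb of them, none was called higher and 2 lower, beside 19.1% and 18.3% of all tested genes. Hspbap1, the next gene beyond Parp14, had a log2 fold change of -0.34 (edgeR adjusted p = 0.0768), and Kpna1, an importin gene beyond Parp9, one of 0.13 (edgeR adjusted p = 0.196). The 2 that fell were Fam162a, a mitochondrial protein, at -0.55 (edgeR adjusted p = 0.0091), and Sema5b, a semaphorin counted at under 1 CPM, at -1.36 (edgeR adjusted p = 0.00883). Dirc2, Wdr5b and Ccdc58 lay between -0.17 and 0.06 with adjusted p-values of 0.133 or more, as did Gm15564, an antisense gene that overlaps Parp9 without sharing exons, at 0.01. At an unadjusted p under 0.05, edgeR still counted none of the 8 as higher, and DESeq2 and limma-voom called none higher. The other members lie apart from this cluster, with Parp11 and Parp12 on chromosome 6, Parp10 on 15, Parp1 on 1, Parp2 on 14, Parp3 on 9 and Parp8 on 13.

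**Figure D4:**
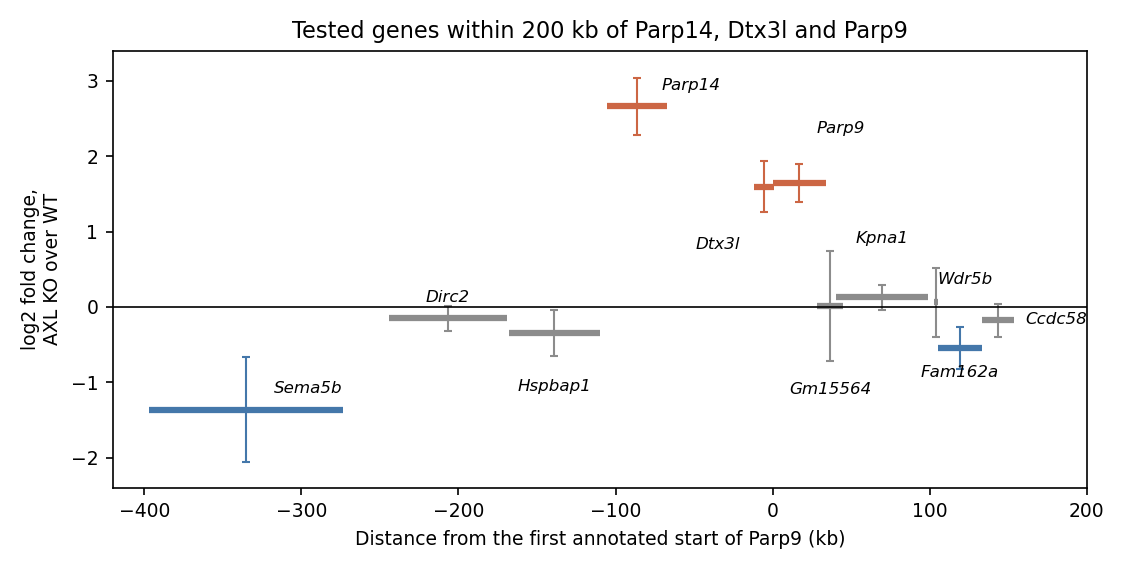
Log2 fold change of AXL KO over WT (vertical bars: 95% interval) of each tested gene within 200 kb of Parp14, Dtx3l or Parp9, drawn over its span in kb from the first annotated start of Parp9. Orange genes were called higher, blue genes lower and grey genes neither, and the 3 orange genes are Parp14, Dtx3l and Parp9.

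The genes whose profile over the 6 libraries was most like these were sought among 11465 other genes (mean log2 CPM of 2 or more) by the root mean square difference of centred log2 CPM. For Parp14 the nearest were Rtp4 and Gbp2, at 0.07 and 0.08, which rose 5.79- and 6.56-fold. Rtp4 is an interferon-induced transmembrane protein and Gbp2 an interferon-induced GTPase. For Parp9 they were Adar, an RNA-editing enzyme, Egf, the epidermal growth factor, and Znfx1, an RNA helicase, at 0.06, 0.07 and 0.09. For Dtx3l they were Kctd12b, Znfx1 and Adar, at 0.05, 0.06 and 0.06. With members included, Dtx3l ranked 3rd and Parp11 4th for Parp9, whereas Parp12 ranked 123rd and Parp14 534th. With 2 groups this far apart, a small difference mostly says that a gene has the same fold change.

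Interferon signals reach such targets through receptors, kinases and transcription factors. Of 15 tested genes of the interferon receptors, kinases, STAT and IRF factors and feedback inhibitors, 9 rose and 3 fell, beside 19.1% and 18.3% of all tested genes, so the share that fell was near the background. Irf7, which amplifies type I interferon, rose 14.3-fold, Stat2 rose 4.18-fold and Irf9, its DNA-binding partner, 2.33-fold. Usp18, a feedback inhibitor that removes ISG15, rose 17.7-fold and Irf1 2.41-fold. Stat6, the factor for which PARP14 is a known co-factor, fell from 125 ± 9.09 to 102 ± 1.54 CPM (SD, n = 3 each, edgeR adjusted p = 0.015). The receptor chains Ifnar2 and Ifngr1 fell too, with log2 fold changes of -0.37 and -0.40 (edgeR adjusted p = 0.00451 and 0.0164), and without AXL KO replicate 1 or 3 only 1 gene of the list was called lower.

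Genes that bind or remove ADP-ribose changed by small factors. Of 15 tested, 4 rose and 4 fell, which are shares not far from the 19.1% and 18.3% of all tested genes, and the median log2 change was 0.10. Macrod1, a hydrolase that removes ADP-ribose from proteins, rose 1.62-fold and Adprh, an ADP-ribosyl-arginine hydrolase, 1.32-fold. Enpp1, a phosphodiesterase that cleaves nucleotides, fell most (log2 fold change -0.72, edgeR adjusted p = 0.00114), and Nudt5 and Nudt9, which hydrolyse ADP-ribose, fell by 0.39 and 0.34 on the log2 scale. Parg, the main enzyme that degrades the chains, had a log2 fold change of -0.08 (edgeR adjusted p = 0.465), and Hpf1, the co-factor of PARP1 and PARP2, one of 0.10 (edgeR adjusted p = 0.400). Without AXL KO replicate 3 only 2 of these genes were called higher and 1 lower, and 2 in each direction without AXL KO replicate 1 or WT replicate 3.

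DNA break repair is the known setting of PARP1, PARP2 and PARP3. Of 22 tested repair genes 4 rose and 2 fell, beside 19.1% and 18.3% of all tested genes, around a median log2 change of 0.15. Aptx, which repairs abortive ligation ends, rose 1.69-fold and Lig3, the ligase that works with XRCC1, 1.42-fold. Brca2 and Brca1, of homologous recombination, rose 1.36- and 1.24-fold, and the uracil glycosylase gene Ung fell (log2 fold change -0.45, edgeR adjusted p = 0.0111), as did Apex1 (-0.35, edgeR adjusted p = 0.0365). Xrcc1, the scaffold that PARP1 recruits, had a log2 fold change of 0.20 (edgeR adjusted p = 0.0873). The number of these genes called lower was 5 without WT replicate 2 and 1 without any other library.

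The labelled tissue fits its markers: Erbb2, Epcam, Krt8 and Krt18 were abundant in all libraries, and of the epithelial markers Krt19 alone was too low to test. Counts in genes were 26541009 to 32491807 per library. Axl itself did not differ (log2 fold change -0.01, 95% interval -0.37 to 0.36), and since the deleted part is not given, it does not check the labels.

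T cell, NK and most dendritic cell markers were higher in the AXL KO libraries, as the interferon-linked genes were. Macrophage and B cell markers mostly were not called, and the part of any marker in the result was not tested. Among all tested genes 19.1% were called higher and 18.3% lower. Of 10 T cell markers 9 were higher, with a summed level of 9.01 to 12.6 CPM in the WT and 24.2 to 26.9 CPM in the AXL KO libraries. All 8 NK and cytotoxic markers were higher, from 2.39 to 4.62 CPM up to 29.3 to 40.9 CPM, and 6 of 8 dendritic cell markers, from 18.3 to 19.5 CPM up to 29.4 to 36.2 CPM. Of 8 general leukocyte markers 3 were higher (summed 154 to 179.7 against 196 to 255.5 CPM). Of 10 macrophage markers 1 was higher and 1 lower, shares below those of all tested genes (summed 634.8 to 960.1 against 435.9 to 999.0 CPM). B cell markers summed to 2.06 to 2.89 and 2.46 to 4.20 CPM, with 2 of 6 tested and neither called by edgeR, DESeq2 or limma-voom, nor past an unadjusted p under 0.05 in edgeR. No marker of these lists was at 0 in all libraries. The 6 interferon-linked genes together held 152 to 212 CPM in the WT and 634.5 to 710.4 CPM in the AXL KO libraries. Of 8 endothelial markers 7 were lower (298 to 332 against 173 to 231 CPM), and of 8 fibroblast markers 1 (3 without AXL KO replicate 2). Of 7 tested epithelial markers 4 were lower, among them Epcam, Krt8 and Krt18, and 1 higher, Erbb2, whose call was lost without WT replicate 1 or 3 or AXL KO replicate 1 or 3. Macrophage markers called lower were 4 without AXL KO replicate 2 and 0 without WT replicate 1 or AXL KO replicate 3, and those called higher were 2 without AXL KO replicate 3.

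**Figure D5:**
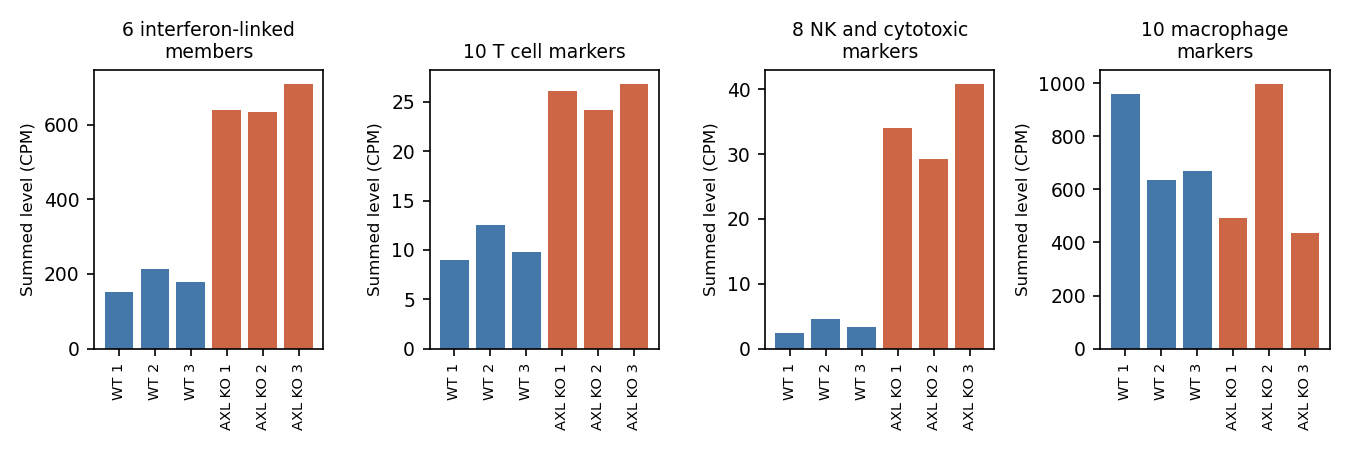
Summed level in CPM (linear axes from 0, a scale of its own in each panel) of the 6 interferon-linked genes and of the T cell, NK and cytotoxic and macrophage markers in each library. WT libraries are blue and AXL KO libraries orange, and the first 3 sums are higher in every AXL KO library than in any WT library, while the macrophage sums overlap.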

How the data were processed

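RNA was sequenced from 3 WT and 3 AXL KO grafts, grouped by sample title. CASAVA 1.8, TopHat2 2.0.10, HTSeq 0.5.3, DESeq2 1.4.5 and build GRCm38 are named in the submitters' processing notes, and their settings and the use of strand are not given here. The authors deposited raw counts per gene, 26541009 to 32491807 per library. Rows that name no gene were left out of library sizes: per the file rows, records of non-unique alignment made up 25.7% to 29.0%, reads in no feature 4.41% to 6.88% and ambiguous reads 0.717% to 1.09% of a library. The authors' deposited table also holds a normalized signal, the log2 fold changes of WT over AXL KO, a test score and p-values. It supplied gene symbols and was otherwise only described.

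Genes were kept with filterByExpr of edgeR 4.0.16 (minimum count 10, minimum total 15), 14850 of 21716 with a count. The quasi-likelihood test used TMM factors with group as the only term (R 4.3.3), with adjustment over all tested genes and a threshold of 0.05. The step was tested on simulated data with a dispersion common to all genes and few changed genes, a simpler setting than these data. Exon lengths and positions came from GENCODE M21 (GRCm38), which held 37607 of 39179 identifiers. The members and all gene lists were chosen with earlier results of these data known. Named were all members, the other tested PARP and Deltex genes, genes within 200 kb of the chromosome 16 cluster, up to 5 genes with the smallest p per pathway list, and the 3 nearest profiles of Parp14, Parp9 and Dtx3l, of which 1 gene, also in the interferon list, is not reported here. Parg, Hpf1, Xrcc1, Apex1, the epithelial markers Erbb2, Epcam, Krt8, Krt18 and Krt19, and from the interferon list Stat6, Irf9, Ifnar2 and Ifngr1, were named outside that rule, after their values were seen. Alternatives tried were limma-voom (limma 3.58.1), DESeq2 1.42.0, its size factors or upper-quartile factors within edgeR, no filter, a floor of 2 on mean log2 CPM, a replicate block, each library left out, an adjusted p of 0.01 and a 2-fold minimum.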

Additional observations from a re-analysis of the deposited data

How the results depend on the processing

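Each of the 10 genes kept its direction and its side of the threshold in all 13 alternative fits, left-out libraries included. The log2 fold change of Parp14 ranged from 2.50 to 2.88 over them, that of Dtx3l from 1.44 to 1.77 and that of Parp2 from -0.40 to -0.32, with an adjusted p of at most 0.0411 for Parp2 and 0.0206 for Parp8. Replicate numbers did not pair the libraries (correlations of same-numbered deviations -0.06, -0.13 and 0.09). With a replicate block 2458 genes were higher and 2373 lower, and the block left the members' count at 7 higher and 1 lower and the calls of all 10 as they were; among the lists' counts it moved by over 1.5 times only that of epithelial markers called higher (0 against 1). The share of the family sum held by the 5 interferon-linked PARP genes was 21.8% in WT and 47.2% in AXL KO with the longest transcript as length, an alternative chosen after seeing the data.

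At an adjusted p under 0.01, 1610 genes were higher and 1464 lower, and with a 2-fold minimum 764 and 716. At 0.01, 1 other PARP gene, 1 ADP-ribose gene, 2 repair genes and 0 epithelial markers were higher, and 1 ADP-ribose gene, 0 repair genes, 1 NAD gene, 1 interferon signalling gene and 0 macrophage markers lower. With a 2-fold minimum 0 members were lower, 1 NAD gene and 1 leukocyte marker were higher, 0 other PARP, ADP-ribose, repair and epithelial genes were higher, 1 NAD gene and 1 endothelial marker were lower, and 0 genes of the other PARP, ADP-ribose, repair, interferon signalling, macrophage, epithelial and fibroblast lists were lower. With a floor of 2 on mean log2 CPM, 0 T cell, 1 NK and 1 dendritic cell marker were higher, with medians of 0.12, 3.58 and 0.46, since fewer were tested, and the ADP-ribose median was 0.042. DESeq2 and the fit without a filter each called 2 macrophage markers higher.

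Over the left-out libraries, all genes called lower numbered 1733 to 2828 (1733 without AXL KO replicate 3) and other PARP genes higher 1 to 3. ADP-ribose genes numbered 2 to 4 higher and 1 to 4 lower, repair genes 1 to 5 lower, NAD genes 1 to 2 lower and interferon signalling genes 1 to 3 lower. Macrophage markers numbered 1 to 2 higher and 0 to 4 lower (4 without AXL KO replicate 2), epithelial markers 0 to 1 higher and fibroblast markers 1 to 3 lower. Medians ranged from 0.0073 to 0.33 for the other PARP genes, from -0.056 to 0.14 for the other Deltex genes (-0.056 without AXL KO replicate 3), 0.011 to 0.16 for ADP-ribose genes, 0.063 to 0.17 for repair genes, 0.026 to 0.078 for NAD genes, 0.39 to 0.63 for interferon signalling and 1.17 to 1.47 for dendritic cell markers. Signs near 0 turned for Dtx2 (-0.056 without AXL KO replicate 3), for Wdr5b (-0.062 to 0.26 over the left-out libraries) and for Gm15564. The last was at -0.013 with upper-quartile factors, -0.047 with limma-voom, -0.016 with the replicate block and -0.25 to 0.27 over the left-out libraries. The cause of these shifts was not tested.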

Other observations

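NAD+, from which the active PARP enzymes take ADP-ribose, is made and used by a set of metabolic enzymes. Of 20 tested genes of NAD metabolism 6 rose and 3 fell, beside 19.1% and 18.3% of all tested genes, around a median log2 change of 0.03. Nadk, the NAD kinase, rose from 83.6 ± 1.25 to 115 ± 9.84 CPM and Nnt, the mitochondrial transhydrogenase, from 95.8 ± 3.23 to 130.2 ± 4.71 CPM (SD, n = 3 each). Nmnat3, which makes NAD, rose 1.82-fold at a low level. Sarm1, an NAD hydrolase of axon degeneration, rose 7.62-fold from 0.151 to 1.18 CPM. Cd38, an NAD hydrolase of the cell surface, fell from 44.1 ± 1.56 to 25.9 ± 2.28 CPM (SD, n = 3 each, edgeR adjusted p = 0.000308). Without WT replicate 3 or AXL KO replicate 1 only 1 NAD gene was called lower.

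Within the groups, the 6 interferon-linked genes shared an order that was noticed after their values were seen. All 6 were lowest in WT replicate 1 and highest in WT replicate 2 among the WT libraries, and highest in AXL KO replicate 3 among the AXL KO libraries. This held for 0 of 4 of Parp1, Parp2, Parp3 and Parp8 and for 3 of 7 other PARP genes, Parp4, Tnks and Zc3hav1. It also held for 7 of 15 interferon signalling genes, for 20.4% of all genes called higher and for 11.5% of all tested genes. Singly, 2 of 10 T cell and 2 of 8 NK and cytotoxic markers had this order, shares near that of all genes called higher, while their summed levels had it, at 9.01, 12.6 and 9.76 CPM and 2.39, 4.62 and 3.31 CPM in WT replicates 1, 2 and 3. Their part in the order of the 6 genes was not tested.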
